A study of Mus musculus with 2 samples.

Results

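The PYHIN genes of the mouse encode a family of interferon-inducible proteins, and 9 of them were followed here across the cells of the mediastinal lymph node, which drains the lung. Of the 31053 genes in the count matrices, 9 matched the 9 symbols of the family sought, namely Aim2, Ifi203, Ifi204, Ifi206, Ifi208, Ifi209, Ifi213, Ifi214 and Mndal. The genes were selected on measured values, their level by lineage and their log2 ratio of CPM between the libraries. Those values are therefore given as a description, with no test. CPM is a gene's counts in a group of cells of a library, scaled to a total of 1e6 counts for those cells. The other family members found in the matrices were Ifi202b, Ifi205, Ifi207 and Ifi211.

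Single-cell RNA was counted in 2 libraries made with droplets that tag the 3′ ends of transcripts. Both came from wild-type C57/B6J mice, 5 to 13 weeks old, with asthma induced by ovalbumin (OVA). The mice received 50 µg of OVA with alum on days 0 and 7, were challenged through the nose on days 14 to 16, and lymph nodes were taken on day 17. One library came from such mice without butyrate and the other from such mice with butyrate, a short-chain fatty acid of the gut microbiota, and 4 mice were pooled in each. How the butyrate was given to the mice of this library is not given in the sources used here. With 1 library a condition there is no replicate, no test and no p-value, and butyrate, mice and library preparation cannot be told apart as sources of a difference. All intervals are exact, cover 95%, and describe counting error only.

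The libraries held 9681 and 8932 cells, and 59176459 and 58381292 unique molecular identifiers (UMIs, counted transcripts), without and with butyrate. After filters 8774 and 8013 cells remained, and 25 barcodes were shared by both libraries. Lineages were read from UMIs of Cd79a (B-lineage, 4210 and 3937 cells), Cd3e with Cd4 (CD4+ T, 962 and 851), Cd3e with Cd8a (CD8+ T, 1459 and 1467), Cd3e with neither or both (other T, 1076 and 848), and Lyz2 (myeloid, 28 and 21). Markers not used for this followed the names, with the B cell marker Ms4a1 at 913 and 999 CPM in B-lineage cells, at 3.37 and 3.22 CPM in CD4+ T cells and at 0 in myeloid cells. The median depth of a B-lineage cell was 4405 and 4615 UMIs, and that of a CD8+ T cell 6750 and 7808 UMIs. Cells were deeper with butyrate in both, and shares of cells were also taken after thinning every cell to 2000 UMIs.

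Most PYHIN proteins carry a pyrin domain, which binds other pyrin domains, and most carry a HIN domain, which binds DNA. Aim2 recognizes double-stranded DNA in the cytosol and recruits the adaptor Pycard to activate caspase-1, while Ifi204 is linked to DNA sensing through the adaptor STING in macrophages. Other members are mostly nuclear proteins, and many genes of the family are induced by type I interferon.

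The 9 genes lay in 1 cluster on chromosome 1, at chr1:173350879-173942672 in GRCm38 (GENCODE M21), a span of 591794 bases. Aim2 stood at one end on the plus strand and Ifi203 at the other on the minus strand, with Ifi209 and Ifi208 on the plus strand and Ifi206, Ifi214, Ifi213, Ifi204 and Mndal on the minus strand. Ifi207 and Ifi211 also lay inside this span, and the annotated span of Mndal overlapped Ifi203 and Ifi211 on the same strand. Among the 26 genes within 500 kb that are not of the PYHIN family, at most 3 had any UMI in a lineage, and none reached the 50 UMIs required for a comparison.

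**Figure D1:**
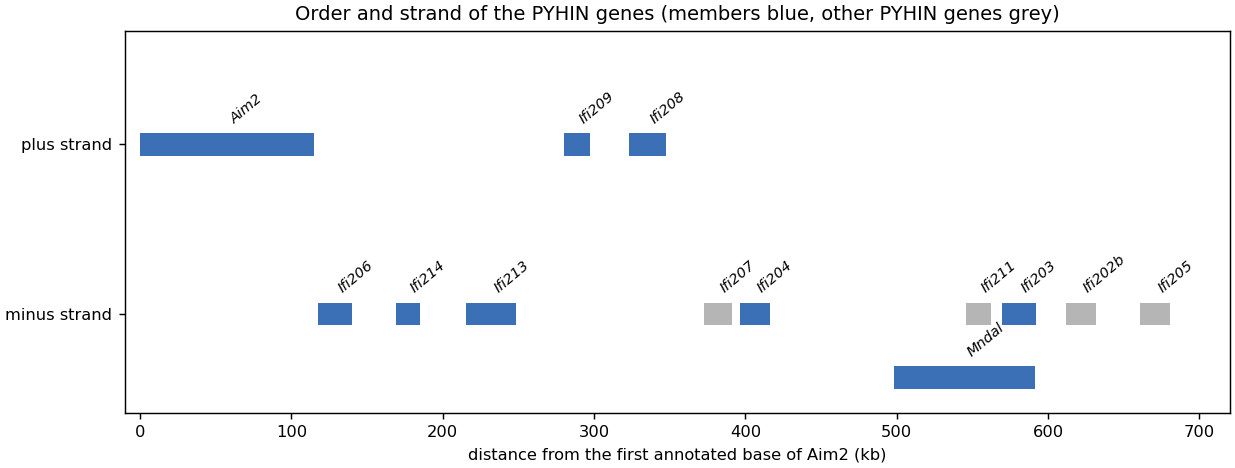
Annotated spans of the PYHIN genes by distance from the first base of Aim2 (horizontal axis, kb) and strand (vertical axis), with the 9 members in blue and the 4 other PYHIN genes in grey. The members fill 591794 bases, 3 on the plus strand and 6 on the minus strand, with Mndal drawn below the others since its span overlaps theirs.

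RefSeq promoters (GRCm38.p6, 250 bases before to 50 after a start) were found for 8 of the 9 members. The core of the interferon-stimulated response element, spelled GAAANNGAA and searched on both strands, occurred in 6 of these 8 and in 8.56% of 32851 promoters of this length. For this and the motifs below, a member counts when any of its promoters matches, whereas the shares are of single promoters. All 6 held the same 9 letters, GAAATCGAA, which occurred in 30 of the 32851 promoters, or 0.0913%. These letters were picked from the members' own matches, so this share is no test. Ifi207, a family gene outside the 9, held them too, and several of these promoters are near copies of each other. The stretch of 29 bases around this element is shown for the members because it is where the promoters that matched and those that did not can be compared, in capitals the element or the 9 letters nearest to it, 5′ to 3′ along each gene's strand.
Ifi206, chr1:173491340-173491368, minus strand: tgtctctgagGAAATCGAAagctatgaac
Ifi213, chr1:173599327-173599355, minus strand: cgtctctgagGAAATCGAAagctatgaac
Ifi208, chr1:173673597-173673625, plus strand: cgtctctgagGAAATCGAAagctatgaac
Ifi214, chr1:173536018-173536046, minus strand: agtctctgagGAAATCGAAagcgatgcac
Ifi209, chr1:173630770-173630798, plus strand: aatctctgagTAAATCGAAagagatgcac
Mndal, chr1:173880205-173880233, minus strand: aagagctgggGAAATCGAAagctatgaac
Ifi203, chr1:173942509-173942537, minus strand: aagagctgggGAAATCGAAagctatgaac
Aim2, chr1:173420469-173420497, plus strand: acttactggaGAAACCTTAttggaggaag

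The element began between 35 and 79 bases before the start in all 6 (for Ifi203 before the later of its 2 starts, for Mndal before the earlier). In GENCODE M21 the 60 bases around the elements of Ifi206, Ifi208, Ifi213 and Ifi214 lay outside any gene. The 60 bases around those of Mndal and Ifi203 overlapped annotated exons of these genes, which does not place the element itself in an exon. The Aim2 stretch lay in an intron of Aim2. Ifi209 differed from the shared element by 1 base, G1T counted from 1 at the element's 5′ end, and Aim2 by 3, T5C, G7T and A8T. The promoters fell into close pairs, with Ifi209 and Ifi214 identical at 95.7% of 300 bases, Ifi208 and Ifi213 at 94.0%, and Ifi206 and Ifi208 at 93.3%. A stretch of 60 bases around the element was identical in Ifi208 and Ifi213, and likewise in Mndal and Ifi203. The Ets core GAGGAA occurred in 5 of 8 members against 28.3% of all promoters, and in Ifi206, Ifi208, Ifi213 and Ifi214 it overlapped the element by 3 bases. The gamma-activated site TTCNNNGAA occurred in 0 of 8 against 8.30%. Around the element, 60 bases of the most similar pair show how little separates a promoter with a match from one without.
Ifi214, chr1:173535997-173536056, minus strand: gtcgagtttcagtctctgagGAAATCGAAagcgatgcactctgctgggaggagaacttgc
Ifi209, chr1:173630760-173630819, plus strand: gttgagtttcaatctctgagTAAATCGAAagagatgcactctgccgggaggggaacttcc

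These matches are letters in a window and were not tested for binding. The 3′ ends of transcripts, where the reads of this assay fall, limit how well some members can be told apart. Of all stretches of 91 bases in the last 500 bases, 58.5% of those of Ifi209 also occurred in Ifi214 and the reverse, so counts of these genes are uncertain. The share was 12% for Ifi206, 7.32% for Ifi213, 4.14% for Mndal, 1.71% for Ifi208 and 0 for Ifi203, Ifi204 and Aim2.

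Across the lineages, the members were distributed in several ways. Ifi206, Ifi208 and Ifi213 were higher in T cells than in B-lineage cells, Ifi209 and Aim2 were higher in B-lineage cells, Ifi203 and Mndal were high in both, and Ifi204 was highest in myeloid cells. Ifi214 was lowest in CD4+ T cells among the B-lineage, CD4+ T and CD8+ T cells. These orders held in each library, as the plot of levels by lineage shows.

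**Figure D2:**
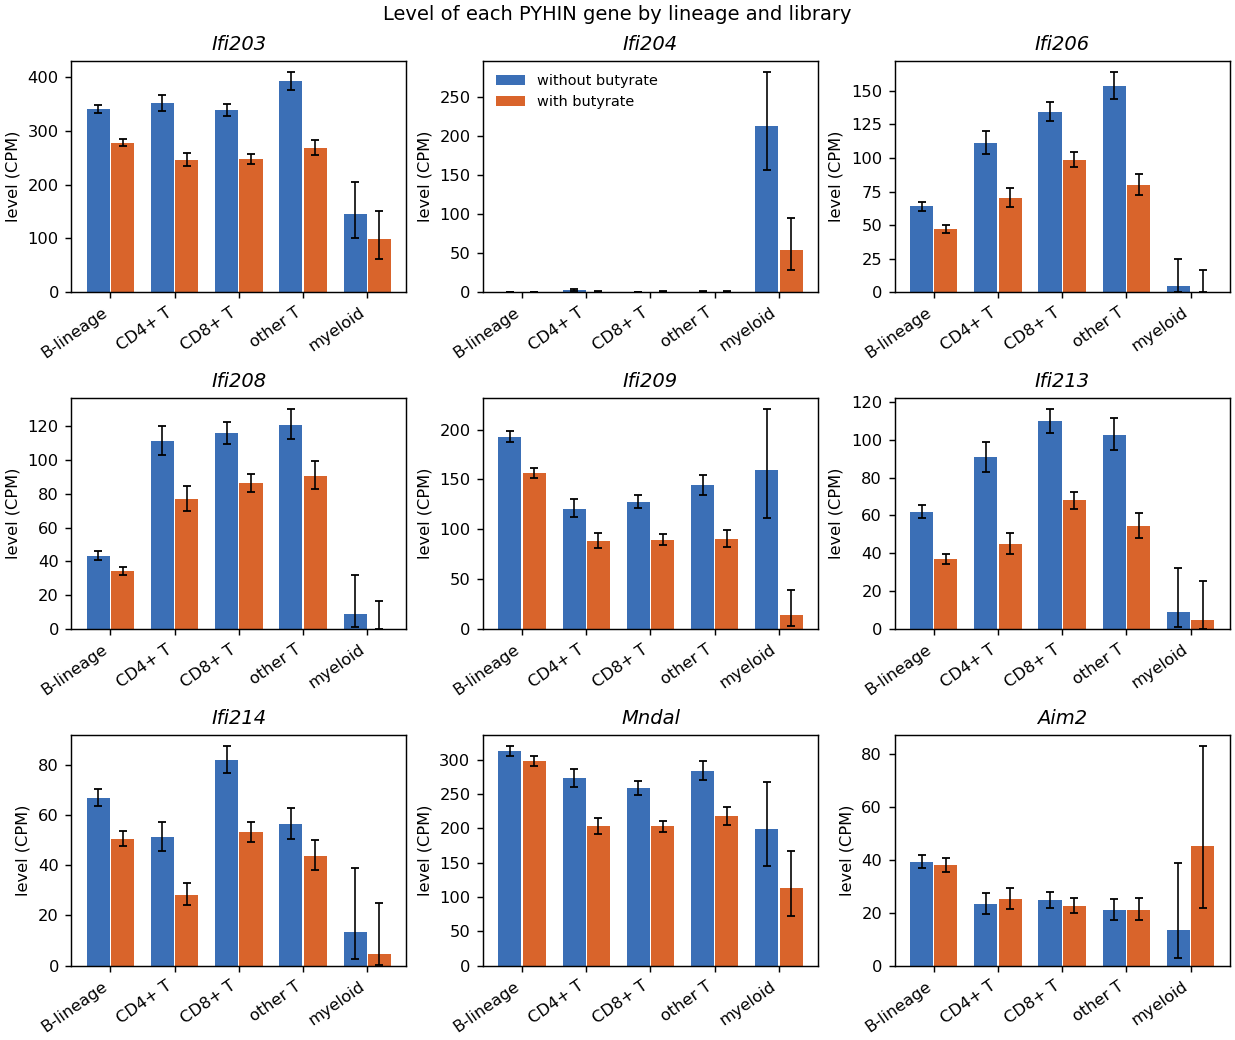
Level of each member (vertical axis, CPM, from 0, with its own scale in each panel) in 5 lineages without butyrate (blue) and with butyrate (orange), with bars for the pooled UMIs of 1 library and lines for exact 95% Poisson intervals. Ifi206, Ifi208 and Ifi213 stand higher in T cells than in B-lineage cells in both colours, Ifi204 is seen in myeloid cells, and orange bars are below blue ones except for Aim2 in CD4+ T, other T and myeloid cells and for Ifi204 where both are near 0.

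Aim2, the sensor of cytosolic DNA that assembles an inflammasome, was at 39.2 CPM without and 38 CPM with butyrate in B-lineage cells. It was at 23.1 and 25.1 CPM in CD4+ T cells and at 24.7 and 22.6 CPM in CD8+ T cells. B-lineage cells were higher than both T lineages in both libraries, with a log2 ratio of CD4+ T over B-lineage cells of -0.57 (-0.76 to -0.38) without and -0.45 (-0.64 to -0.26) with butyrate. After thinning to equal depth, 7.66% and 7.13% of B-lineage cells held an Aim2 UMI against 3.55% and 4.13% of CD4+ T cells, so the order remained. CD4+ and CD8+ T cells did not differ beyond their intervals, with a log2 ratio of CD8+ over CD4+ T cells of 0.07 (-0.15 to 0.28) and -0.10 (-0.31 to 0.10).

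Ifi204, the macrophage-associated member, was found in 15 of 28 myeloid cells without and in 5 of 21 with butyrate. The myeloid cells held 48 and 12 UMIs of it, a level of 213 CPM (157 to 282) and 54.2 CPM (28.0 to 94.6). In B-lineage cells, taken for comparison, 11 and 9 UMIs were found, 6 of the 11 in 1 cell, and free RNA was not measured. They lay in 0.119% and 0.178% of cells, at a median depth of 4405 and 4615 UMIs against 6739 and 5042 in myeloid cells. After thinning, 36.4% and 13.3% of myeloid cells and 0.024% and 0.0511% of B-lineage cells held a UMI. Of the myeloid cells with Ifi204, 12 of 15 and 4 of 5 also had a UMI of Csf1r, the receptor for the macrophage growth factor, and 12 and 5 had Ifi207. In T cells the counts were small, with 18 UMIs in 5 CD4+ T cells without butyrate, 11 of them in 1 cell, and 11 UMIs in 5 CD8+ T cells with butyrate, 7 of them in 1 cell. These were 0.52% and 0.341% of the cells, and a single cell held most of the UMIs. A further 12 and 9 cells with Ifi204, holding 41 and 27 UMIs of it, were among the mixed cells left out. Mixed cells carry Cd79a with Cd3e, or at least 5 UMIs of Lyz2 with either of these. With butyrate, more Ifi204 UMIs thus lay in mixed than in myeloid cells. Of the mixed cells with Ifi204, 11 and 7 had Csf1r.

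Ifi206, Ifi208 and Ifi213, whose promoters were among the most similar, shared the T cell pattern. Ifi206 was at 64.0 and 46.9 CPM in B-lineage cells, 112 and 70.5 CPM in CD4+ T cells, and 134 and 98.6 CPM in CD8+ T cells. Ifi208 was at 43.3 and 34.2 CPM, 111 and 77.1 CPM, and 116 and 86.3 CPM in the same order of lineages and libraries. Ifi213 was at 62.1 and 36.8 CPM, 90.6 and 44.9 CPM, and 110 and 67.9 CPM. In each library CD8+ T cells were above B-lineage cells, by a log2 ratio of 0.96 (0.87 to 1.06) and 0.93 (0.83 to 1.04) for Ifi206, 1.24 (1.14 to 1.35) and 1.12 (1.01 to 1.24) for Ifi208, and 0.73 (0.63 to 0.83) and 0.73 (0.62 to 0.85) for Ifi213. CD8+ and CD4+ T cells were close for Ifi208, with a log2 ratio of 0.05 (-0.07 to 0.18) and 0.15 (0.00345 to 0.29). In myeloid cells these genes were near 0, with 1 and 0 UMIs of Ifi206, 2 and 0 of Ifi208, and 2 and 1 of Ifi213, where a count of 0, taken as allowing 3 counts, allows up to 13.5 CPM with butyrate. The thinned share of cells with an Ifi206 UMI was 23.3% and 16.8% in CD8+ T cells, 11.9% and 9.17% in B-lineage cells, and 0 in myeloid cells.

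Ifi209 and Ifi214 were close in promoter and 3′ end but not in their levels across lineages. Ifi209 was at 193 and 156 CPM in B-lineage cells, 121 and 88.4 CPM in CD4+ T cells, and 128 and 89.4 CPM in CD8+ T cells. Ifi214 was at 66.8 and 50.5 CPM, 51.2 and 28.3 CPM, and 82.1 and 53.2 CPM. Ifi209 was lower in CD8+ T than in B-lineage cells, by a log2 ratio of -0.56 (-0.64 to -0.48) and -0.74 (-0.83 to -0.65), whereas Ifi214 stood at 0.26 (0.15 to 0.37) and 0.06 (-0.06 to 0.18). After thinning these ratios were -0.73 and -0.73 for Ifi209, and 0.08 and -0.12 for Ifi214. Ifi214 was higher in CD8+ than in CD4+ T cells in both libraries, by 0.59 (0.43 to 0.75) and 0.72 (0.53 to 0.91). Since their 3′ ends share most stretches, both counts are uncertain, and how reads from shared stretches were assigned was not examined.

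Ifi203 and Mndal, mostly nuclear proteins, were found in most lymphocytes. Ifi203 was at 341 and 278 CPM in B-lineage cells, 351 and 247 CPM in CD4+ T cells and 338 and 247 CPM in CD8+ T cells. Without butyrate these 3 lineages did not differ beyond their intervals before thinning. After thinning, CD8+ T cells of that library were lower, at 336 CPM against 383 CPM in B-lineage and 378 CPM in CD4+ T cells. Mndal was at 313 and 298 CPM, 273 and 203 CPM, and 258 and 203 CPM. B-lineage cells were above CD8+ T cells for Mndal, by a log2 ratio of CD8+ T over B-lineage cells of -0.27 (-0.33 to -0.21) without and -0.53 (-0.60 to -0.47) with butyrate. Both genes were lower in myeloid cells than in B-lineage cells, with Ifi203 at 146 and 99.3 CPM and Mndal at 199 and 113 CPM there.

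Between the libraries, the 7 members other than Aim2 and Ifi204 had log2 ratios below 0 in every lymphocyte lineage, and no member was called higher. The summed level of the 9 genes was 1122 without and 939 CPM with butyrate in B-lineage cells, a log2 ratio of -0.26 (-0.28 to -0.23). In CD4+ T cells it was 1136 and 784 CPM, a log2 ratio of -0.53 (-0.58 to -0.47), and in CD8+ T cells 1191 and 869 CPM, a log2 ratio of -0.45 (-0.49 to -0.41). In other T cells it was 1276 and 868 CPM, a log2 ratio of -0.55 (-0.61 to -0.50). The T lineages thus lay about 27.0% to 32.0% lower with butyrate and B-lineage cells 16.4% lower, though after thinning to equal depth the B-lineage log2 ratio was -0.39. Ratios are on the log2(CPM + 10) scale, which understates the change of low genes.

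A gene with at least 50 UMIs in a lineage was called lower or higher when its log2 ratio reached 0.5 in size. In B-lineage cells 1 of 8 members was lower and 0 higher, where 0.621% of all genes with 50 UMIs were lower and 0.0669% higher. In CD4+ T cells 3 of 8 were lower and 0 higher, against 0.8% and 0.0686% of all such genes. In CD8+ T cells 2 of 8 were lower and 0 higher, against 0.408% and 0.0752%. In other T cells 4 of 8 were lower and 0 higher, against 0.767% and 0.272%. In myeloid cells 3 of the 3 members with 50 UMIs were lower and 0 higher, against 18.9% and 8.88%. Because the selection used this ratio, nothing is read from these shares. Ifi204 passed the minimum of 50 UMIs only in myeloid cells, and 6 members did not pass it there. The median log2 ratio of the members was -0.29 in B-lineage, -0.49 in CD4+ T and -0.42 in CD8+ T cells, beside 0.03, -0.0012 and 0.0078 over all genes with 50 UMIs.

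**Figure D3:**
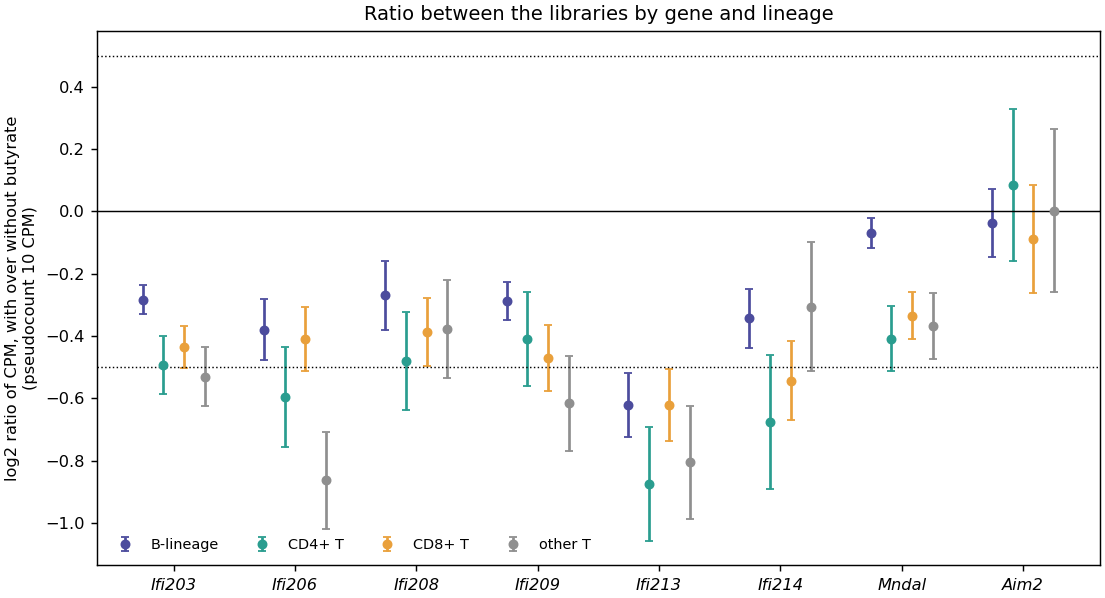
Log2 ratio of CPM with over without butyrate (vertical axis, pseudocount of 10 CPM) for the 8 members with 50 UMIs in each of 4 lymphocyte lineages (colours), with exact 95% intervals and dotted lines at -0.5 and 0.5. Ifi213 lies below -0.5 in all 4 lineages, the 4 intervals of Aim2 include 0, and Mndal in B-lineage cells is closer to 0 than in T cells.

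Ifi213 had the largest fall in log2(CPM + 10) among the members over all cells, from 81.3 to 47.8 CPM. Its log2 ratio was -0.62 (-0.73 to -0.52) in B-lineage, -0.87 (-1.06 to -0.69) in CD4+ T, -0.62 (-0.74 to -0.51) in CD8+ T and -0.81 (-0.99 to -0.62) in other T cells, the only member past 0.5 in all 4. Ifi206 was lower by -0.59 in CD4+ T cells and by -0.86 in other T cells, and stood at -0.41 in CD8+ T and -0.38 in B-lineage cells. Ifi214 was lower by -0.68 in CD4+ T and -0.54 in CD8+ T cells. Ifi203 and Ifi209 were called in other T cells, at -0.53 and -0.62. With at least 2 marker UMIs to define a lineage, the calls of Ifi206 (-0.43) and Ifi214 (-0.40) in CD4+ T cells and of Ifi203 (-0.42) and Ifi209 (-0.48) in other T cells were lost, and that of Ifi203 also after thinning (-0.44). The values nearest to the threshold in CD4+ T cells were -0.59 for Ifi206 inside it and -0.49 for Ifi203 and -0.48 for Ifi208 outside it, with intervals of all 3 crossing -0.5.

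Aim2 stood apart from this, and Mndal did so in B-lineage cells. Over all cells Aim2 was at 30.5 and 29.9 CPM, a log2 ratio of -0.02 (-0.10 to 0.06), and its intervals included 0 in all 4 lymphocyte lineages. Over all cells Mndal had a log2 ratio of -0.23 (-0.26 to -0.20). It was at -0.41 (-0.51 to -0.30) in CD4+ T cells and -0.34 (-0.41 to -0.26) in CD8+ T cells but at -0.07 (-0.12 to -0.02) in B-lineage cells. After thinning, the B-lineage ratio of Mndal was -0.22. With butyrate, 58 of the 6486 Mndal UMIs of B-lineage cells came from 1 cell. Without plasma and cycling cells, a choice made after seeing the data, Mndal in B-lineage cells was at 334 and 301 CPM, a log2 ratio of -0.14 (-0.19 to -0.10), and Ifi213 at 67.7 and 38.1 CPM, a ratio of -0.69 (-0.80 to -0.59).

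Depth moved with the B-lineage ratio. Among B-lineage cells at or below the pooled median of 4518 UMIs the summed level was 1386 and 1064 CPM, a log2 ratio of -0.38 (-0.42 to -0.34), and above it 981 and 883 CPM, a ratio of -0.15 (-0.18 to -0.12). In CD4+ T cells the ratios of the shallower and deeper cells were -0.41 and -0.45, and in CD8+ T cells -0.43 and -0.41. With every cell thinned to 2000 UMIs, the B-lineage ratio was -0.39, and the CD4+ and CD8+ T ratios were -0.54 and -0.48.

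At equal depth of 2000 UMIs, a cell held UMIs of fewer members with butyrate. The mean number of the 9 genes seen in a cell was 1.79 without and 1.42 with butyrate in B-lineage cells, 1.81 and 1.35 in CD4+ T cells, and 1.86 and 1.42 in CD8+ T cells. Cells with none of the 9 made up 17.3% and 24.1% of B-lineage cells, 16.6% and 24.6% of CD4+ T cells, and 15.5% and 23.7% of CD8+ T cells. Cells with 3 or more members made up 26.0% and 16.3%, 26.4% and 14%, and 29.4% and 16.7% in the same lineages. At most 8 members were seen in 1 cell.

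In myeloid cells the 9 genes summed to 173 UMIs without and 74 with butyrate, or 767 CPM (657 to 890) and 334 CPM (262 to 419), a log2 ratio of -1.18 (-1.58 to -0.78). Ifi204 was lower, by -1.80 (-2.66 to -0.96), as were Mndal, by -0.77 (-1.47 to -0.08), and Ifi203, by -0.52 (-1.29 to 0.24), a call lost with Lyz2 of at least 20 (-0.30). The 41 and 27 Ifi204 UMIs of the mixed cells are not in its value. Ifi209 had 36 UMIs in 9 cells without butyrate, 14 of them in 1 cell, and 3 UMIs in 3 cells with butyrate. Aim2 had 3 and 10 UMIs, 6 of the 10 in 1 cell. Ifi207, the neighbour of Ifi204 in the gene order, had 56 and 20 UMIs, or 248 CPM (187 to 322) and 90.3 CPM (55.1 to 139).

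The makeup of these few cells differed between the libraries. The neutrophil markers S100a8 and S100a9 were at 1799 and 2407 CPM without and 5791 and 9618 CPM with butyrate, and 3 cells without and 1 with butyrate had 5 or more UMIs of S100a9. Of the monocyte markers, Ly6c2 was at 306 and 58.7 CPM but Ccr2 at 558 and 501 CPM, and Csf1r was at 346 and 289 CPM. Ly6c2 was also lower with butyrate in B-lineage cells, at 117 and 22.3 CPM, so it is not particular to monocytes here. In the myeloid cells with Csf1r, 16 and 11 cells split off after seeing the data, Ifi204 remained at 231 CPM (167 to 311) without and 60.1 CPM (28.8 to 111) with butyrate. The part of monocyte and macrophage makeup in the Ifi204 value was not tested otherwise.

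Smaller classes showed how the members vary within a lineage. Foxp3+ cells, the regulatory T cells, numbered 85 and 77. They held less Ifi206 than CD4+ T cells without a Foxp3 UMI in the library without butyrate, 55.8 CPM (41.1 to 74.0) against 121 CPM (112 to 131), and less Ifi208, 46.5 CPM against 122 CPM. With butyrate Ifi206 was at 49.0 CPM (34.8 to 67.0) in Foxp3+ and 73.8 CPM (66.5 to 81.6) in other CD4+ T cells, with intervals that just overlapped. Aim2 had the opposite order, with 43.0 CPM (30.3 to 59.3) and 42.7 CPM (29.6 to 59.7) in Foxp3+ cells and 19.7 CPM (16 to 24.0) and 22.3 CPM (18.4 to 26.8) in the other CD4+ T cells. Ifi203 and Mndal hardly separated them, with Ifi203 at 337 CPM in Foxp3+ and 354 CPM in other CD4+ T cells without butyrate.

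Gamma-delta T cells, 91 and 72 in number, had Ifi206 at 232 CPM (190 to 280) and 140 CPM (106 to 181), above the 134 and 98.6 CPM of CD8+ T cells in both libraries. Plasma cells, the antibody-secreting cells, had low levels, with Ifi203 at 49.4 CPM (37.1 to 64.4) and 121 CPM (89.7 to 159) at a median depth of 25554 and 31839 UMIs. With butyrate the 50 Ifi203 UMIs of plasma cells lay in 6 of 12 cells, 21 of them in 1 cell. Their Mndal was at 59.4 CPM and 232 CPM, with 58 of the 96 UMIs with butyrate in 1 of 12 cells. Cycling cells, 151 and 88 in number and also deep, had Ifi213 at 14.5 and 5.30 CPM and Mndal at 143 and 141 CPM, below their levels in B-lineage and T cells, while Aim2 was at 33.8 and 30.6 CPM, near its level over all cells. With butyrate 58 of the 347 Mndal UMIs of cycling cells were in 1 cell.

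The members were next set beside the interferon response of the same cells. Each thinned cell was placed by its UMIs of 18 interferon-response genes, such as Ifi27l2a, Isg15, Ifit3 and Rsad2, none of them a PYHIN gene. Ifi27l2a weighs most in this count. Before thinning it had 20198 UMIs in B-lineage and 10660 in CD4+ T cells without butyrate. Bst2, the next, had 2988 and 1184. The summed level of the members rose with this count in each library. In B-lineage cells the summed level of the members was 901 CPM in cells with 0 such UMIs and 2313 CPM in cells with 5 or more without butyrate, a log2 ratio of 1.35 (1.27 to 1.43), and 724 and 2415 CPM with butyrate, a ratio of 1.72 (1.63 to 1.82). In CD4+ T cells the ratio was 1.24 (1.04 to 1.45) and 1.23 (1.01 to 1.45), and in CD8+ T cells 1.15 (1.0 to 1.30) and 1.5 (1.33 to 1.66). Cells of 1 library are not replicates, so these are descriptions of each library.

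**Figure D4:**
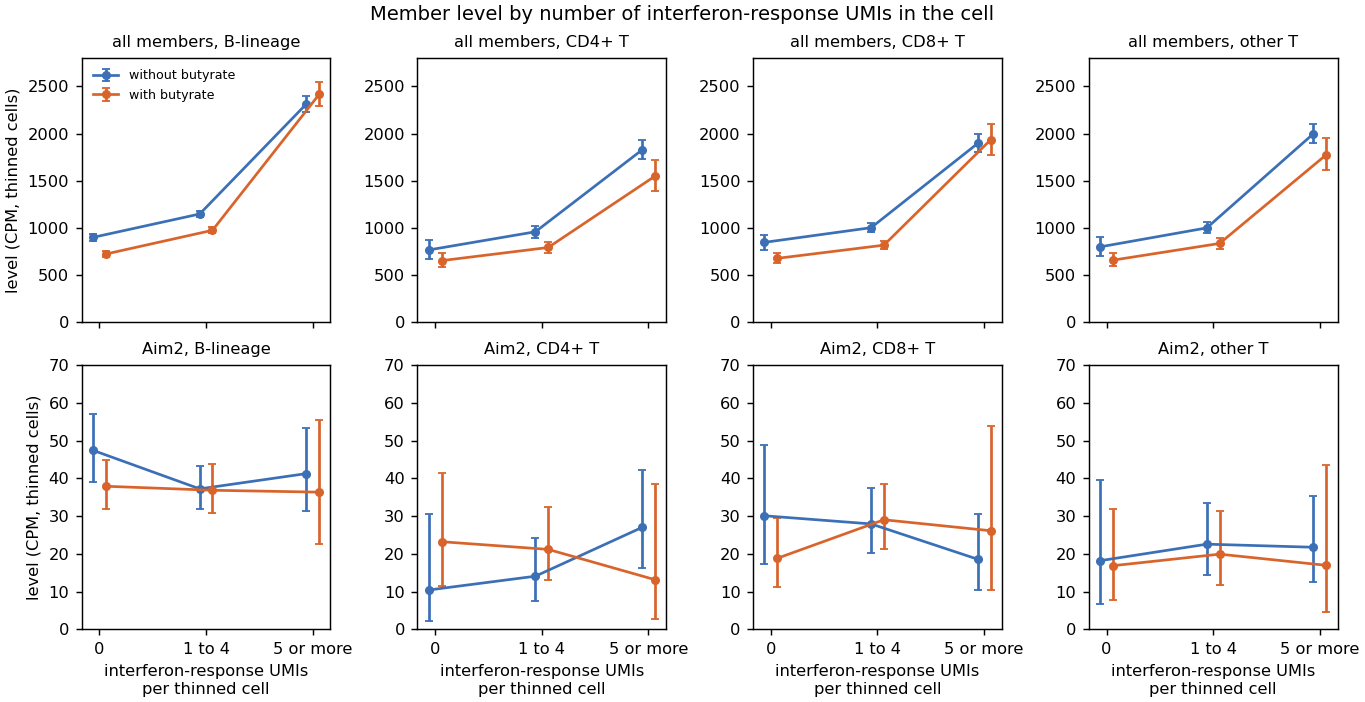
Level (vertical axis, CPM in thinned cells, from 0) of all 9 members summed (upper row) and of Aim2 (lower row) in cells with 0, 1 to 4, and 5 or more UMIs of 18 interferon-response genes (horizontal axis), without (blue) and with (orange) butyrate, with exact 95% Poisson intervals. The summed level climbs in every lineage, from 901 to 2313 CPM in B-lineage cells without butyrate. Aim2 has no climb shared by the lineages and libraries, and its intervals overlap. In CD4+ T cells without butyrate Aim2 goes from 10.4 to 27.0 CPM, on 3 and 19 UMIs.

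By member, Ifi213 had the steepest relation in B-lineage cells, from 31.7 to 199 CPM without butyrate (log2 ratio 2.32, 2.02 to 2.62) and from 15.8 to 166 CPM with butyrate (2.77, 2.40 to 3.12). Ifi206 and Ifi208 were also steep, at 1.87 and 2.24 for Ifi206 and 1.82 and 2.0 for Ifi208. Mndal and Ifi203 were shallower, at 1.05 and 1.38 and at 1.26 and 1.54. Ifi209, whose promoter lacked the exact element, stood at 1.19 (1.01 to 1.38) and 1.73 (1.5 to 1.95). Ifi214, whose promoter is the most similar and has the element, stood at 1.54 (1.26 to 1.82) and 2.09 (1.74 to 2.43). In CD8+ T cells Ifi209 stood at 0.94 and 1.78 and Ifi214 at 1.74 and 1.03, so their order changed between the libraries. In CD4+ T and other T cells Ifi214 was the higher in both. Intervals of this pair overlapped in every lymphocyte lineage of both libraries, and their counts are uncertain because of shared 3′ ends. A part of the element in these ratios was not tested. All 7 of these genes had intervals above 0 in B-lineage, CD8+ T and other T cells in both libraries, and in CD4+ T cells with 1 exception, Ifi208 with butyrate, at 0.64 (-0.04 to 1.31). Aim2 did not rise in B-lineage cells, at -0.16 (-0.55 to 0.22) and -0.05 (-0.60 to 0.49), and its intervals included 0 in all 4 lineages of both libraries. In CD4+ T cells Aim2 stood at 0.86 (-0.27 to 1.72) without and -0.52 (-1.57 to 0.75) with butyrate. These rest on few UMIs, so a rise there is neither shown nor excluded.

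The cells were spread differently over these bins in each library. Cells with 5 or more interferon-response UMIs made up 16.6% of B-lineage cells without and 7.38% with butyrate, 36.7% and 13.5% of CD4+ T cells, and 27.7% and 9.14% of CD8+ T cells. Within each bin of B-lineage, CD4+ T and CD8+ T cells the libraries were closer than over all thinned cells of that lineage, whose ratios are given above. The members rose with this count and fewer cells had a high count with butyrate, so closer ratios are largely built into the split. In the bin of 1 to 4 the mean count was 1.98 and 1.74 UMIs in B-lineage, 2.32 and 1.91 in CD4+ T and 2.15 and 1.78 in CD8+ T cells. The part of the interferon response in the ratios was not tested. In B-lineage cells the log2 ratio of the members' sum with over without butyrate was -0.31 (-0.39 to -0.23) in cells with 0, -0.23 (-0.29 to -0.17) in cells with 1 to 4, and 0.06 (-0.03 to 0.15) in cells with 5 or more, whose mean interferon-response count was 8.34 and 8.29 UMIs. In CD8+ T cells it was -0.32 (-0.49 to -0.15), -0.29 (-0.40 to -0.19) and 0.03 (-0.12 to 0.17). In CD4+ T cells it was -0.23 (-0.48 to 0.02), -0.27 (-0.41 to -0.13) and -0.24 (-0.41 to -0.07), and the cells with 5 or more held a mean of 10.8 and 9.40 such UMIs.

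Genes of related pathways were counted from lists. The share of all genes called in each lineage, given above, is the background for these counts. The inflammasome list held Nlrp3, Nlrc4, Naip5 and Nek7, genes of other inflammasomes, beside those of the AIM2 inflammasome. Of this list, 0 of 8 in B-lineage, 0 of 5 in CD4+ T and 0 of 5 in CD8+ T cells were lower or higher. In myeloid cells 1 of 2 was lower, Il1b, a cytokine matured by caspase-1, with 64 and 28 UMIs, against 18.9% of all genes there. Pycard, the adaptor of Aim2, was at 288 and 253 CPM in CD4+ T cells and 172 and 184 CPM in CD8+ T cells. Of the cytosolic DNA sensing list, 1 of 15, 1 of 15 and 0 of 15 were lower in these lineages and none higher. Zbp1, an interferon-inducible sensor of Z-form nucleic acid, was at 118 and 77.9 CPM in CD4+ T cells, a log2 ratio of -0.54, while Hmgb1 stood at 692 and 611 CPM, a ratio of -0.18.

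Of the genes that receive and relay interferon signals, 0 of 15 were lower in B-lineage, 3 of 15 in CD4+ T and 3 of 15 in CD8+ T cells, and none was higher. The kinase Jak1, which relays the signal from the receptor, was at 399 and 411 CPM in CD4+ T cells, a log2 ratio of 0.04. Of the interferon-response list, 6 of 17, 14 of 17 and 12 of 18 were lower. Of the 10 interferon genes, 2 at most had a UMI in any lineage, and Ifng in CD8+ T cells was at 6.06 and 8.81 CPM.

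The genes whose levels ran most like a member's over 10 sums, 5 lineages by 2 libraries, were taken by Pearson's r of log2(CPM + 10) among 8660 genes. Of the 8 members with 500 UMIs, Ifi206 and Ifi213 were each among the other's 3 nearest genes, at r = 0.987. The nearest to Ifi208 was Srpk2 (0.990), to Ifi209 Aaas (0.968), to Ifi214 Rpl35 (0.967), to Mndal Samd9l (0.973) and to Aim2 Atf7 (0.968), and that to Ifi206 was Insl6 (0.991). The 10 sums share their libraries and include the sparse myeloid cells, so these values only describe likeness of pattern.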

How the data were processed

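Cells of 2 libraries, 1 per condition with 4 mice pooled in each, were measured. The authors ran Cell Ranger 6.0.1 on mm10 (submitters' processing notes) and deposited raw UMI counts. Filters took out 186 and 327 cells whose mitochondrial share passed 10% or whose detected genes numbered below 200. Putative doublets, 721 and 592 cells or 0.8% per 1000 cells, were ranked by Scrublet in scanpy 1.11.5 and dropped. Lineages needed at least 1 UMI of their marker (5 of Lyz2). Cells with markers of both B and T lineages, or with 5 UMIs of Lyz2 and either marker, were left out. UMIs were summed per lineage and library and compared as log2(CPM + 10) with exact intervals (scipy 1.17.1), since 1 library a group allows no test. The scripts were checked on simulated counts. Named were all 9 members, the other PYHIN genes, the genes most like each member, and, of the lists, genes with the 2 lowest and 2 highest ratios at 100 CPM or more, of which examples are given and some are not reported here. Members and lists were chosen with earlier results of these data known. Gene positions came from GENCODE M21, which held 30934 of the identifiers, and promoters from RefSeq. Alternatives changed filters, markers, scaling, pseudocount, thinning and thresholds.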

Additional observations from a re-analysis of the deposited data

How the results depend on the processing

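The summed log2 ratio of the members stayed below 0 in all 68 recomputed values, with 0 reversed, and 57 of the 68 stayed within the counting interval. The cause was not tested for the values that moved. Over 10 settings each, it ranged from -0.39 to -0.25 in B-lineage, -0.54 to -0.45 in CD4+ T, -0.49 to -0.45 in CD8+ T, -0.59 to -0.48 in other T and -2.38 to -1.08 in myeloid cells. Thinned to 2000 UMIs, it was -0.39 in B-lineage cells (2 members lower) and -2.38 in myeloid cells (0 lower), with 5 lower in CD4+ T cells. With 2 marker UMIs it was -0.45 in CD4+ T cells (1 lower) and -0.48 in other T cells. In B-lineage cells it was -0.30 scaled without ribosomal, mitochondrial and immunoglobulin genes and -0.28 centred on the median gene. A pseudocount of 1 gave 5 lower in CD4+ T cells. In myeloid cells 0 were lower with Lyz2 of at least 20 or with at least 200 UMIs, which no member had there, and 7 lower and 1 higher with no filter. Ifi204 in myeloid cells kept a log2 ratio of -2.22 to -1.70 over 10 settings, so for this gene 0 lower reflects the minimum of UMIs and not a smaller ratio. At a log2 ratio of 1, 0 members were lower in B-lineage, CD4+ T, CD8+ T and other T cells and 1 in myeloid cells. Chosen after seeing the data, thinned cells with no interferon-response UMI gave -0.31 in B-lineage, -0.23 in CD4+ T and -0.32 in CD8+ T cells. Leaving out Mndal gave -0.33, and leaving out plasma and cycling cells -0.33, in B-lineage cells, and leaving out the shared barcodes changed no lineage beyond its interval. No paired analysis was possible because each condition has 1 library. The pooling of 4 mice, the few myeloid cells and the shared 3′ ends of Ifi209 and Ifi214 limit precision.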

Other observations

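Ifi205, a PYHIN gene at the far end of the cluster, had 25 UMIs without and 70 with butyrate over all cells. With butyrate most lay in a few cells with a UMI of Flt3, the dendritic cell receptor, which numbered 11 and 16. Cells with any Cd79a or Cd3e, with 5 or more UMIs of Lyz2, or with more than 1 of Siglech were left out of this count. The counted cells held 4 UMIs in 1 cell without butyrate, 35.1 CPM (9.57 to 89.9), and 58 UMIs in 5 cells with butyrate, 258 CPM (196 to 334). Mndal went the other way in the same cells, at 132 CPM (73.7 to 217) and 40.1 CPM (18.3 to 76.1). It rested on 15 and 9 UMIs, 7 of the 15 in 1 cell. In myeloid cells Ifi205 was at 31.0 and 18.1 CPM, on 7 and 4 UMIs. Of the 410 stretches of 91 bases near the 3′ end of Ifi205, 59.0% also occurred in Ifi211 and 34 in Mndal. Its counts, and its comparison with Mndal, are therefore uncertain, and no test was possible with so few cells. Ifi202b had 0 UMIs in both libraries, and Ifi211 had 53 and 41.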
